A study of Mus musculus with 6 samples.

Results

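Segments of the T cell receptor gamma, alpha and beta chain genes are described here, as read by array probe sets in Sox13 transgenic and wild-type thymocytes. They were selected by their platform annotation, which had to hold a symbol of a gamma, alpha, beta or delta receptor segment, and 24 of 25470 probe sets, which name 10 of 9206 annotated genes, met this rule. The receptor segments were proposed for description with their log2 ratios of transgenic over wild type already known. These ratios are therefore given as a description, with no test.

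The T cell receptor is built from 2 chains, gamma with delta or alpha with beta. Each chain gene is assembled in the thymus from variable (V) and joining (J) segments, with a diversity segment in the beta and delta chains, by the recombinase encoded by Rag1 and Rag2. The transcript of the assembled gene also holds a constant (C) segment. A thymocyte first rearranges its gamma, delta and beta genes, and it rearranges alpha at the CD4+CD8+ double-positive stage. Cells of the alpha-beta lineage keep their gamma genes mostly silent, whereas gamma-delta T cells transcribe them strongly. Sox13 encodes a transcription factor of the Sox family, known from gamma-delta thymocytes.

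The study set Sox13 transgenic mice beside wild-type littermates, and asked whether Sox13, placed in cells of the alpha-beta lineage, can switch on the gene program of another T cell lineage. The transgenic group was CD4+CD8+ double-positive thymocytes of female C57BL/6 mice, 6 weeks old, that carried the Sox13 transgene. The wild-type group was the same sorted cells of female C57BL/6 mice of 6 weeks without it, and the labels state that these cells do not express their own Sox13. Affymetrix arrays were used, Mu11K A and Mu11K B (distinct probe sets) in experiment 1 and U74A version 2 in experiment 2, with 1 transgenic and 1 wild-type sample on each array type. Each sorted sample pooled at least 2 mice. The sources used here name neither the promoter that drives the transgene nor the founder lines. With 1 sample per genotype and array type, no value has a replicate error, and the number of arrays limits the precision.

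Intensities were scaled so that every array has a 2% trimmed mean of 500. Anything dimmer than a floor of 100 was set to 100 before log2 was taken, so where the wild type is at the floor the fold is a lower bound, written "at least". In each pair of arrays between 46.9% and 57.4% of the probe sets lay above the floor. The SD of the log2 ratios among probe sets that at least 1 array of the pair read above the floor was 0.73 on Mu11K A, 0.83 on Mu11K B and 0.35 on U74A. Sox13, which checks the labels, had 5951 in the transgenic sample and 27.4 in the wild type on Mu11K A, and 3832 and 599.6 on U74A, where the wild type was thus above the floor. Genes that mark the double-positive stage were above the floor in both genotypes on every array type. On U74A, Cd4 had 5040.1 in the transgenic and 6496 in the wild-type sample, Cd8a 15638 and 17759, and Rag1 11709 and 12724, and every one of the 8 listed marker genes measured there had a probe set above the floor in both samples. On Mu11K A, 2 of the 5 probe sets of these markers were 2-fold or more lower and 1 higher, where 6.99% and 2.72% of all probe sets were. The lower ones were Rag2, with 459.8 in the transgenic and 1871 in the wild-type sample, and Cd1d1, with 308 and 669. The higher one was Ptcra, with 953 and 312.

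The 24 probe sets comprised 9 named for gamma, 9 for alpha and 6 for beta segments, with 8 of them on Mu11K A, 3 on Mu11K B and 13 on U74A. They covered few of the segments that RefSeq lists for the GRCm38.p6 assembly. The gamma probe sets named 3 of 7 gamma V segments, Trgv1, Trgv2 and Trgv4. The alpha probe sets named 5 of 130 alpha V segments, Trav12d-2, Trav12n-1, Trav19, Trav6-2 and Trav9d-3, and the beta probe sets named 2 of 35 beta V segments, Trbv1 and Trbv13-2. No probe set was named for a delta segment, nor for a J or C segment of any chain, so the delta chain is not analysed here. The annotation does not say which part of a rearranged transcript a probe set reads. A probe set named for a V segment can lie on a sequence that also holds the J and C segments, and it may then read transcripts with other V segments. In Affymetrix naming, the suffixes s, g and f mark probe sets that may also read related transcripts, and rc marks one designed on the reverse complement of its source sequence.

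In the gamma locus, on chromosome 13 in RefSeq, Trgv1 lies between Trgv2 and the J segment Trgj4. Trgv4 lies between Trgv7 and Trgv6, in another V-J-C cluster. The alpha segments lie on chromosome 14, where Trav12d-2 and Trav9d-3 are neighbours, and the beta segments lie on chromosome 6, where Trbv1 comes before Trbv2.

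Gamma segment signal was higher in the Sox13 transgenic samples in both experiments, while no alpha or beta probe set differed 2-fold in either direction, except that Trav9d-3 on Mu11K A reached a log2 ratio of -1.04 with quantile normalization. Of 9 gamma probe sets, 8 were above the floor on at least 1 array, all 8 were higher in the transgenic sample and 6 were 2-fold or more higher. Of the 8, m12815_at and 102695_at, both of Trgv1, were above the floor in the transgenic sample only, so their ratios could only be above 0. The gamma probe set left out, M18858_rc_at, was below the floor in both, at 48.4 in the transgenic and 66.8 in the wild-type sample. On Mu11K A, 3 of 6 gamma probe sets were 2-fold or more higher, where 2.72% of all probe sets were. On U74A all 3 gamma probe sets were 2-fold or more higher, where 0.555% of all probe sets were. Among those that at least 1 array read above the floor, the same shares were 4.56% and 0.971%. The median log2 ratio of the gamma probe sets above the floor was 1.58 on Mu11K A (1.02 with the member at the floor included) and 2.10 on U74A, against -0.07 and -0.03 over all probe sets above the floor on those arrays. These ratios are the ones known when the segments were proposed, so the shares show how common such differences were on each array and support nothing further.

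Trgv1, the V segment beside Trgj4, was read by 1 probe set on U74A and by a pair of probe sets of 1 source sequence on Mu11K A. On U74A (102695_at) Trgv1 had 492 in the transgenic and 89.9, under the floor, in the wild-type sample, at least 4.92-fold higher. On Mu11K A the g-suffixed probe set (m12815_g_at) had 591 in the transgenic and 197 in the wild-type sample, 3.0-fold higher. The plain probe set of that sequence (m12815_at) had 137 in the transgenic sample and -32.5 in the wild type, at least 1.37-fold higher. All 3 Trgv1 probe sets thus lay higher in the transgenic sample, with the wild type below the floor in 2 of them.

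Probe sets annotated to both Trgv4 and Trgv2, which the annotation cannot separate, gave log2 ratios of 1.71, 2.60 and 2.06. The probe set with the largest of these ratios (m54996_s_at) had 968 in the transgenic sample against 159.8 in the wild type, 6.06-fold higher, and only 8 of 6508 probe sets of that array had a larger ratio. The other Mu11K A probe set of this pair (M12839_g_at) had 675 in the transgenic sample against 206 in the wild type, 3.27-fold higher. On U74A (102744_at) the intensities were 597 in the transgenic sample and 143 in the wild type, 4.17-fold higher. In all 3 of these probe sets both genotypes were above the floor, so none of these folds is a bound.

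Trgv4 alone was named by 3 probe sets, and their values differed between the experiments. On U74A (102745_at) Trgv4 had 909 in the transgenic and 212 in the wild-type sample, 4.29-fold higher. On Mu11K A the probe set designed on the same source sequence (M18858_rc_at) lay below the floor in both, at 48.4 in the transgenic and 66.8 in the wild-type sample, and it carries the rc mark. The remaining Trgv4 probe set of Mu11K A (M12839_at) had 173 in the transgenic and 154 in the wild-type sample, a log2 ratio of 0.17, within the central 95% of all probe sets of that array (-1.47 to 1.05). Its g-suffixed partner of the same source sequence is the Trgv4 and Trgv2 probe set with 3.27-fold. On Mu11K A the 3 gamma probe sets past 2-fold all carried a g or s suffix, and the 3 that were not past it did not, whereas on U74A none of the 3 carries such a suffix. The member nearest above the 2-fold line was m12815_g_at (Trgv1), at a log2 ratio of 1.58, and the member nearest below it was m12815_at, at 0.45 or more.

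The 3 gamma probe sets of U74A stood close together, with log2 ratios from 2.06 to 2.30, and ranked 6, 9 and 10 from the top of 12422 probe sets. The wild-type sample was above the floor in 4 of 6 gamma probe sets on Mu11K A, the highest at 206, and in 2 of 3 on U74A, the highest at 212. In the transgenic samples 5 of 6 and 3 of 3 were above the floor, the highest at 968 and 909. In sorted pools of cells, more cells that hold gamma transcripts and more gamma RNA per cell cannot be told apart.

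**Figure D1:**
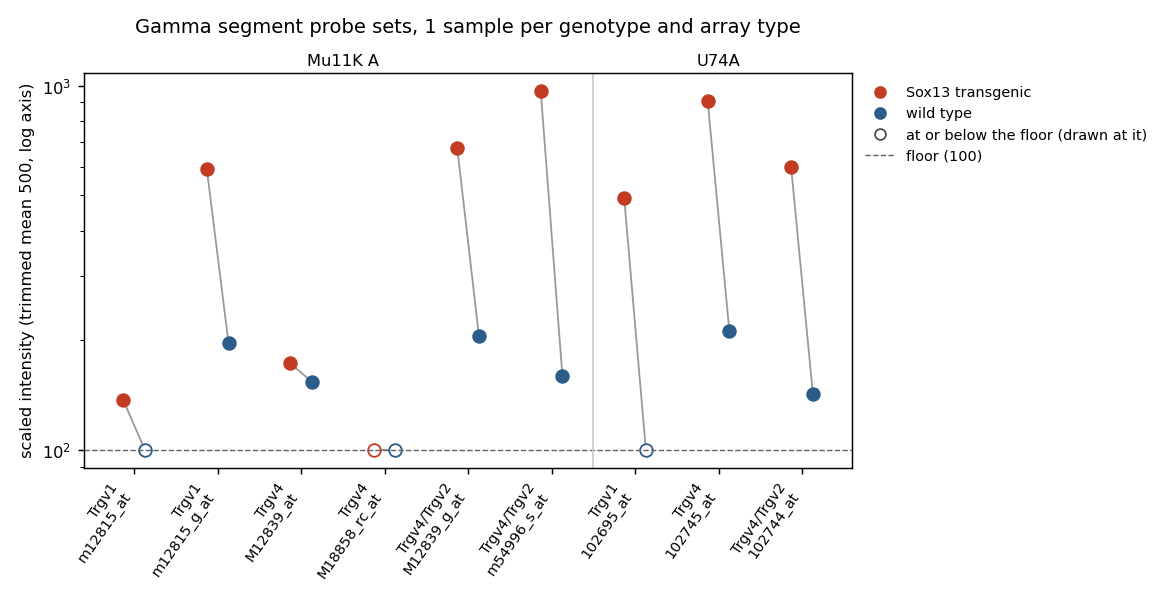
Scaled intensity (log axis, trimmed mean of each array 500) of the 9 gamma segment probe sets in the Sox13 transgenic sample (left of each pair) and the wild-type sample (right), 1 sample per genotype and array type. Open circles are values at or below the floor of 100, drawn at it; on U74A the 3 transgenic values, 492, 909 and 597, lie above all wild-type values, which reach 212.

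The 6 gamma probe sets past 2-fold stayed past it wherever an alternative kept them. Over the 8 alternatives that give a ratio, the log2 ratios of the 6 probe sets past 2-fold lay between 1.30 (Trgv1 on U74A, floor of 200) and 2.93 (m54996_s_at, arrays scaled to equal medians). With only probe sets of 1 symbol counted, which leaves out those annotated to both Trgv4 and Trgv2, 1 of the Mu11K A gamma probe sets was past 2-fold and their median was 0.45.

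**Figure D2:**
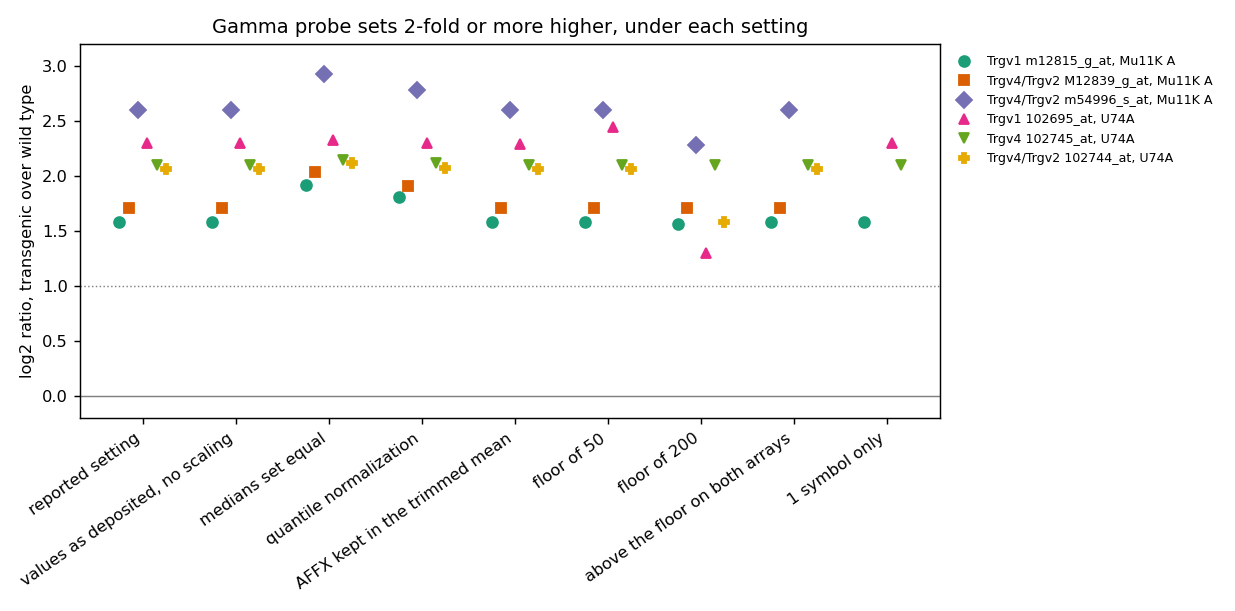
Ratio (log2, transgenic over wild type) of the 6 gamma probe sets that were 2-fold or more higher, as reported and under each alternative that gives a ratio. Every plotted value lies above the dotted 2-fold line, with the lowest at 1.30 and the highest at 2.93; a missing symbol means that the alternative left the probe set out.

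Alpha segment signal differed by less than 2-fold in every probe set at the reported scaling. Of 9 alpha probe sets, 8 were above the floor on at least 1 array, with log2 ratios from -0.90 to 0.18, of which 7 were below 0 and 1 above. On Mu11K A, 0 of 8 receptor probe sets was 2-fold or more lower, where 6.99% of all probe sets were, and on U74A 0 of 13, where 0.322% were. On Mu11K B 0 of 3 was past 2-fold, where 3.36% of all probe sets were higher and 7.61% lower. On the Mu11K arrays these shares depended on the scaling. When the arrays were scaled to equal medians, 5.69% were higher and 3.66% lower on Mu11K A and 8.09% and 3.82% on Mu11K B, and with quantile normalization 3.75% and 4.95% on Mu11K A and 4.80% and 5.50% on Mu11K B.

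Trav9d-3, an alpha V segment, was named by 4 probe sets, 2 of which are designed on the same source sequence in the 2 experiments. Of these, m16118_at on Mu11K A had 4053 in the transgenic and 7582 in the wild-type sample, a log2 ratio of -0.90, and 14.2% of the probe sets above the floor on that array had a lower ratio. Its counterpart on U74A (97945_at) had 9133 in the transgenic and 10628 in the wild-type sample, a log2 ratio of -0.22. The family probe set 97944_f_at had 24714 in the transgenic and 25478 in the wild-type sample, and 93224_at 192 and 199, with log2 ratios of -0.04 and -0.05. The 4 Trav9d-3 probe sets were thus all lower in the transgenic sample at the reported scaling, of which 2 were at 0.00 and 0.01 when the arrays were scaled to equal medians, and the difference was larger on Mu11K A than in any of the 3 on U74A.

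The other 4 alpha segments were named by 1 or 2 probe sets each. Trav12d-2 had 1029 in the transgenic and 1306 in the wild-type sample on Mu11K B, a log2 ratio of -0.34, which turned to 0.11 when the arrays were scaled to equal medians. Trav12n-1 had 303 in the transgenic and 399.6 in the wild-type sample on U74A (93223_at), a log2 ratio of -0.40. Trav6-2 had 148 in the transgenic and 193 in the wild-type sample on U74A (101824_at), a log2 ratio of -0.38. Trav19 was read by probe sets of the same source sequence in both experiments. On U74A (101823_at) Trav19 had 245 in the transgenic and 216 in the wild-type sample, and on Mu11K B 13 and 90.6, both below the floor. Trav19 was the only alpha probe set above 0 on U74A at the reported setting, at a log2 ratio of 0.18.

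Beta segment signal, which a double-positive cell needs to have passed beta selection, differed little on U74A, where the 4 beta probe sets had log2 ratios from -0.28 to 0.09 and a median of 0.00. Trbv1 had 40126 in the transgenic and 41417 in the wild-type sample with the s-suffixed probe set (93105_s_at), and 3711 and 3584 with the other (94726_at). Their log2 ratios were -0.05 and 0.05. Trbv13-2, a member of the V beta 8 family in older naming, had 3195 in the transgenic and 3876 in the wild-type sample with its family probe set (101279_f_at), and 1372 and 1289 with the other (94202_at), at log2 ratios of -0.28 and 0.09. On Mu11K A (l37873_rc_at) Trbv13-2 had 181 in the transgenic and 282 in the wild-type sample, a log2 ratio of -0.64. On Mu11K B (M26417_at) Trbv13-2 lay below the floor, at 83.4 in the transgenic and -256 in the wild-type sample.

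**Figure D3:**
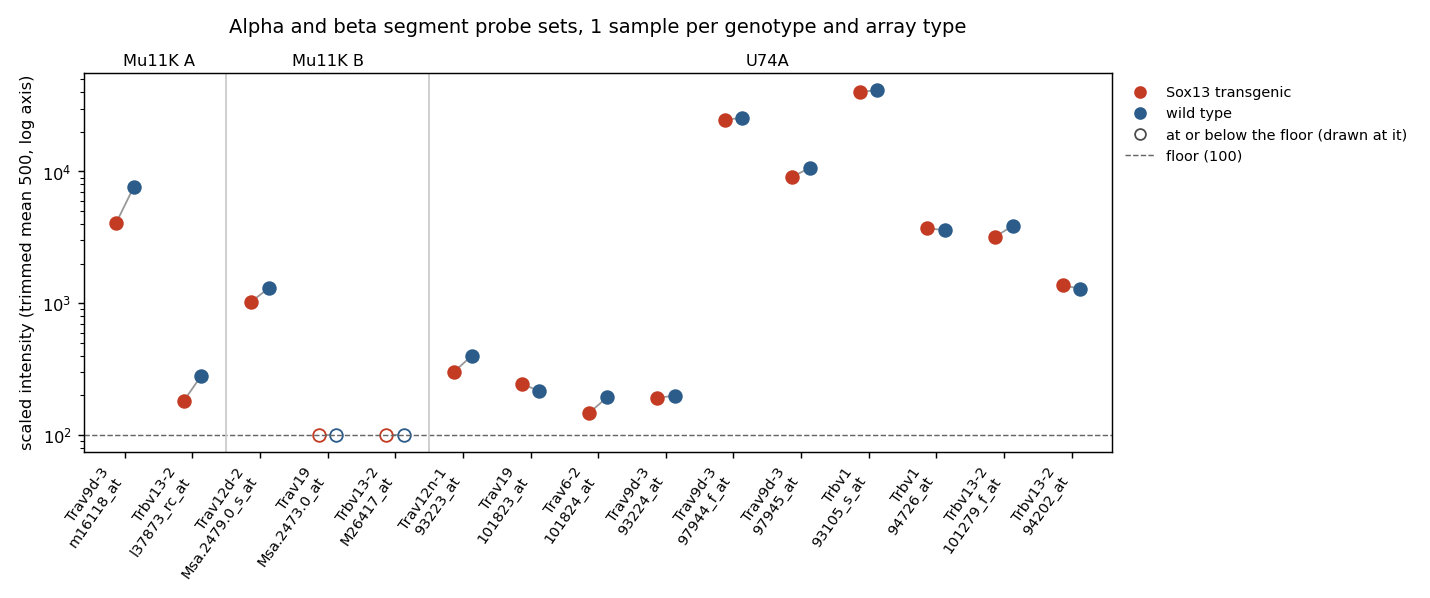
Scaled intensity (log axis, trimmed mean of each array 500) of the 15 alpha and beta segment probe sets in the Sox13 transgenic sample (left of each pair) and the wild-type sample (right), 1 sample per genotype and array type. The points of a pair lie close together on U74A; the widest gap above the floor is Trav9d-3 on Mu11K A, at 4053 in the transgenic and 7582 in the wild-type sample.

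Over alpha and beta together, 13 of 15 probe sets were above the floor on at least 1 array, 10 of them lower and 3 higher in the transgenic sample, and 0 past 2-fold. Of all probe sets above the floor on U74A, 0.971% were 2-fold or more higher and 0.563% lower, so 0 of 10 there is close to that share. These shares were 4.56% and 11.7% on Mu11K A, and 6.15% and 13.9% on Mu11K B. On U74A 7 of 10 were lower and 3 higher, but with the medians set equal 4 were lower and 6 higher, so the sign of these small ratios depended on the scaling. The signs of the gamma probe sets above the floor did not turn under any of the 4 other scalings, at log2 ratios of at least 0.17. For m12815_at and 102695_at, with the wild type under the floor at the reported scaling, a turn was hardly possible. Of these scalings, the values as deposited and the trimmed mean with AFFX control probe sets kept gave nearly the reported ratios. Set side by side on U74A, the lowest gamma ratio was 2.06 and the highest alpha or beta ratio 0.18.

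**Figure D4:**
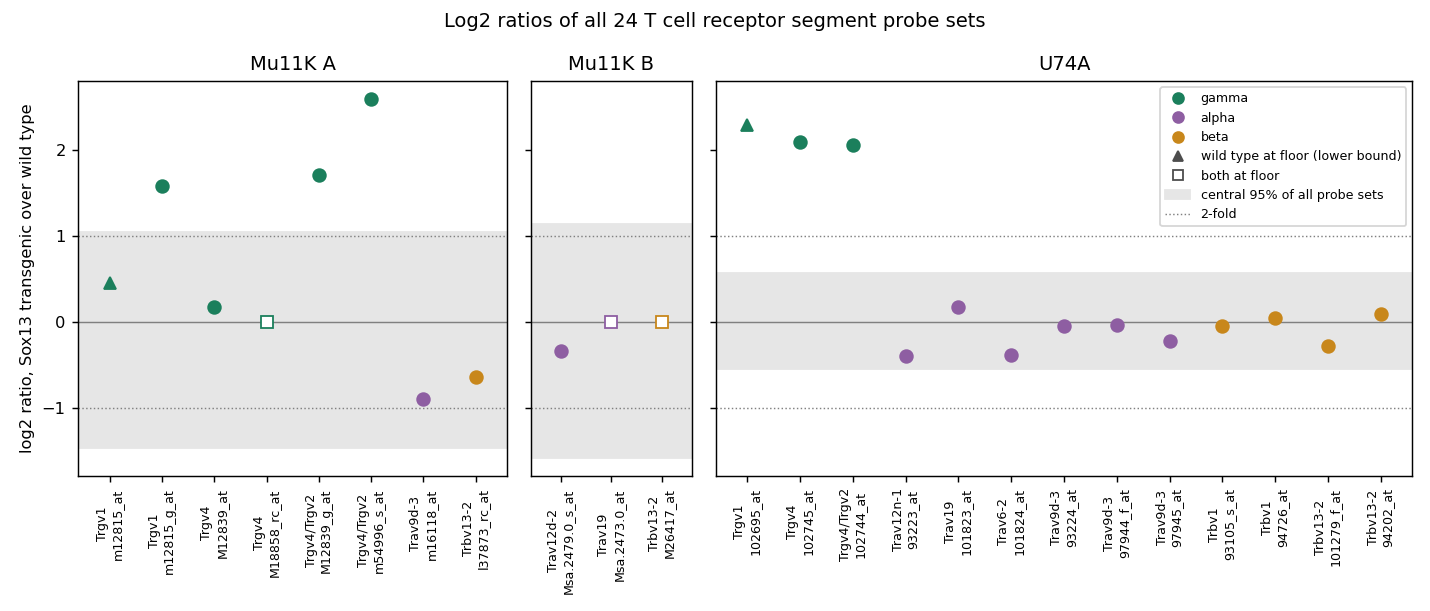
Log2 ratio of Sox13 transgenic over wild type for all 24 receptor probe sets by array type and chain, with the central 95% of all probe sets of that array shaded and 2-fold dotted. On U74A the 3 gamma points lie between 2.06 and 2.30 and the 10 alpha and beta points between -0.40 and 0.18; on Mu11K A 3 gamma points lie above the shaded range.

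By gene, with the ratios of its probe sets above the floor averaged within an experiment, 5 annotations were measured in both. Trgv1 had log2 ratios of at least 1.02 in experiment 1 and at least 2.30 in experiment 2, and the Trgv4 and Trgv2 probe sets 2.15 and 2.06. Trgv4 alone had 0.17 and 2.10. Trav9d-3 had -0.90 and -0.11, and Trbv13-2 -0.64 and -0.09. At the reported floor the 3 gamma annotations thus had ratios above 0 in both experiments, with Trgv4 alone close to 0 in experiment 1. The 1 alpha and 1 beta segment had ratios below 0 in both, further from 0 in experiment 1. For Trgv4 alone and Trbv13-2 the sign in experiment 1 depended on the floor. At a floor of 50 another Trgv4 probe set (M18858_rc_at) entered the average at -0.42, beside 0.17. Another Trbv13-2 probe set (M26417_at) then entered at 0.74, beside -0.64.

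**Figure D5:**
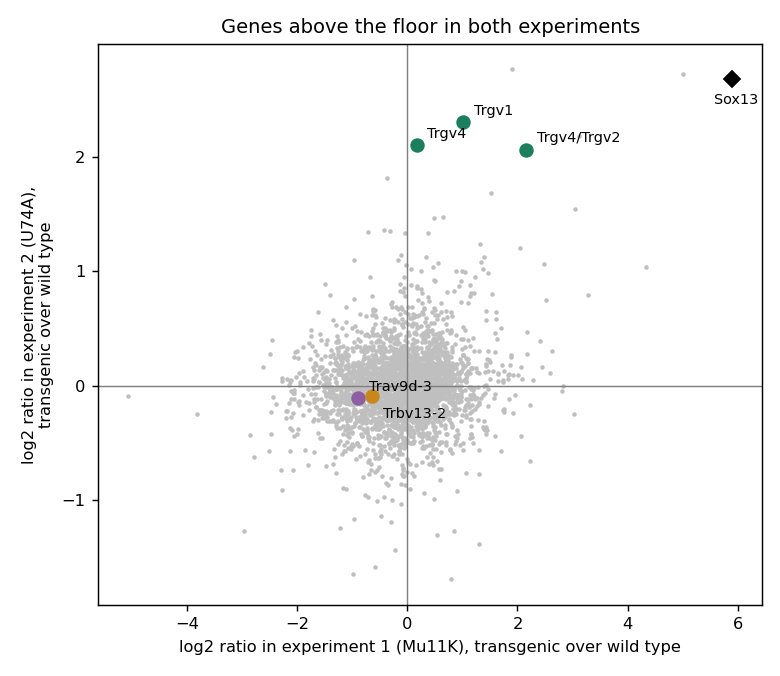
Log2 ratio of transgenic over wild type in experiment 1 (Mu11K, horizontal) and experiment 2 (U74A, vertical), where each point is a gene above the floor on at least 1 array of both experiments; receptor segments are coloured and named, Sox13 is a diamond, other genes are grey, and ratios with a wild type at the floor, such as those of Trgv1 and Sox13, are lower bounds. The gamma segments lie at 2.06 to 2.30 on the vertical axis, above nearly all grey points.

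Among the 3237 genes with 1 symbol measured in both experiments, those nearest to the receptor annotations past 2-fold in both were found by the distance between pairs of log2 ratios, over 2 ratios. The nearest to Trgv1 were Usp18, which removes ISG15 from proteins, with 1.52 and 1.68 (distance 0.80), Trgv4 (0.87), Rangrf with 0.64 and 1.47 (0.91), Drc1 with 0.48 and 1.46 (0.99) and the alpha-globin gene Hba-a1 with 1.90 and 2.76 (1.00), whose 2 Mu11K B probe sets disagreed, at log2 ratios of -0.03 and 3.83. The nearest to the Trgv4 and Trgv2 probe sets were Usp18 (0.74), Hba-a1 (0.74), the ubiquitin-like gene Isg15 with 2.04 and 1.20 (0.87), Plac8 with 3.11 and 2.18 (0.96) and the beta-globin gene Hbb-b2 with 3.04 and 1.54 (1.03). All of these had ratios above 0 in both experiments, which follows from choosing them as nearest to annotations past 2-fold. Which genes were nearest depended on the floor, since the Trgv1 ratios are lower bounds. With a floor of 50, an alternative chosen after seeing the data, Trgv1 had 1.52 and 2.45 and its nearest gene was Hba-a1 (0.49), with 3 of its 5 nearest genes shared with the list above. The Trgv4 and Trgv2 probe sets then had 2 of 5 shared, with Myl10 the nearest (0.56).

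Markers of gamma-delta T cells moved with the gamma segments in part. Of 10 listed genes, 7 were measured on Mu11K A, 3 on Mu11K B and all 10 on U74A. Their summed intensity without Sox13, the transgene, was 3491 in the transgenic and 2591 in the wild-type sample on Mu11K A. The same sums were 8882 and 1982 for Mu11K B, and 3595 and 2956 for U74A. Gzma (values below) made up most of the Mu11K B sums, and without Gzma neither of these arrays had a higher sum in the transgenic sample. Without Sox13, 2 of 7 probe sets on Mu11K A were 2-fold or more higher and 1 lower, 1 of 4 higher on Mu11K B, and 3 of 11 higher on U74A. Both higher ones on Mu11K A were of Blk. Its wild type was below the floor in M30903_s_at there and in both Blk probe sets on U74A, so these ratios could only be above 0. Over all probe sets, 2.72% were 2-fold or more higher and 6.99% lower on Mu11K A, 3.36% higher on Mu11K B and 0.555% higher on U74A. The Src-family kinase gene Blk had 712 and 236 in the transgenic sample against 254 and 74.4 in the wild type on Mu11K A, and 359.6 and 115 against 93.4 and 39.8 on U74A. The granzyme gene Gzma had 8604 in the transgenic and 1535 in the wild-type sample on Mu11K B, and 1262 and 605 on U74A. Cd7 had 425 in the transgenic and 214 in the wild-type sample on Mu11K A, and 235 and 118 on U74A. By contrast Maf, a transcription factor gene, had 109 in the transgenic and 338 in the wild-type sample on Mu11K A, a log2 ratio of -1.63, and 229 and 388 with one Mu11K B probe set. Zbtb16, which encodes the factor PLZF, was below the floor wherever it was measured, Ccr6 was below it on U74A, and Il2rb and Il7r lay below it in both samples of Mu11K A and at most at 119.5 on U74A. Id3 made up much of the Mu11K A sums, with 1922 in the transgenic and 1651 in the wild-type sample. On U74A Id3 had 1365 in the transgenic and 1809 in the wild-type sample, a log2 ratio of -0.41. Double-positive thymocytes also express some of these genes, such as Id3, and the part of these markers in the gamma result was not tested.

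Of the markers of other cells, the globin genes of the erythroid list were higher in the transgenic samples, while its other genes were not. The list's summed intensity was 3063 in the transgenic and 689 in the wild-type sample on Mu11K B, and on U74A 2121 and 463, with Hba-a1 and Hbb-b2 the genes past 2-fold. Of its 4 probe sets above the floor on Mu11K B, 2 were lower, a second one of Hba-a1 (299 in the transgenic and 305 in the wild-type sample) and Gata1, an erythroid transcription factor gene (-17.0 and 143). Gata1 on U74A had 75.5 and 105 with one probe set and was below the floor with the other, and Alas2 was below the floor. The natural killer list had 1396 in the transgenic and 681 in the wild-type sample on U74A, where Gzma was its only gene above the floor and Klrd1, Klrk1, Ncr1 and Prf1 lay below it. The B cell list had 1528 in the transgenic and 1422 in the wild-type sample on U74A and 1235 and 1122 on Mu11K A, with Cd22 below the floor on both. Cd79b made up much of the U74A sum, with 661 in the transgenic and 775 in the wild-type sample. Of the 9 probe sets there 1 was past 2-fold higher, where 0.555% of all probe sets were. It was for Ms4a1, which encodes CD20, with 201 and 60.0. The other Ms4a1 probe set on U74A had 158 and 89.5, and Cd79a, a B cell receptor subunit gene, had 177 and 101. Pax5 and Blnk there had log2 ratios of -0.14 and -0.02, each with another probe set below the floor. On Mu11K A Ms4a1 had 699 and 769.8 with one probe set and was below the floor with the other, and Cd79b had 523 and 350.4. On Mu11K B Cd79a was below the floor in both samples. The myeloid list had 915 in the transgenic and 773 in the wild-type sample on U74A and 1762 and 2205 on Mu11K A. Of its 9 probe sets on U74A 1 was past 2-fold higher, against the same 0.555% of all probe sets. It was for the lysozyme gene Lyz2, with 255 and 54.5, at least 2.55-fold, whereas on Mu11K A Lyz2 had 1627 and 2024. One Csf1r probe set on U74A had 104 and 194, a log2 ratio of -0.89. The mature single-positive list had 233 and 194 on U74A and 692 and 411 on Mu11K A. The part of these markers in the gamma result was not tested.

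The partners of the receptor, a list of 19 genes for the CD3 chains, the coreceptors, pre-T cell receptor alpha, proximal kinases and the recombination machinery, were measured for 15 genes in each experiment. In experiment 1, 2 of 18 probe sets were 2-fold or more higher and 2 lower, and the 15 above the floor had a median log2 ratio of -0.25. Over all probe sets, 2.72% on Mu11K A and 3.36% on Mu11K B were 2-fold or more higher, and 6.99% and 7.61% lower, so 2 of 18 lower is close to the share over all probe sets. In experiment 2, 0 of 23 were 2-fold or more higher and 0 lower, with a median of -0.02 over the 20 above the floor. Over all probe sets on U74A, 0.555% were 2-fold or more higher and 0.322% lower, so 0 of 23 is close to the share over all probe sets. Ptcra, whose product pairs with the beta chain before alpha is rearranged, had 953 in the transgenic and 312 in the wild-type sample on Mu11K A, and 2247 and 1503 on U74A. The kinase gene Zap70 had 5309 in the transgenic and 2589 in the wild-type sample on Mu11K B, whereas its 3 probe sets on U74A had log2 ratios of -0.11, -0.33 and -0.15. The lower partners were Rag2 (above), which had 2119 in the transgenic and 2008 in the wild-type sample on U74A, and Prkdc, an end-joining kinase gene, with 97.2 in the transgenic and 267 in the wild-type sample on Mu11K A and 281 and 269 on U74A.

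The genes of the CD3 subunits, which carry the receptor to the surface, differed little. On U74A Cd3e had 6900.2 in the transgenic and 7124 in the wild-type sample, Cd3g 8991 and 7805, and Cd3d 5519.8 and 5183 with the probe set above the floor. On the Mu11K arrays the log2 ratios were 0.42 for Cd3e, -0.37 for Cd3g and 0.07 for Cd3d. Cd247, also on the partner list, had a log2 ratio of 0.46 on Mu11K A. On Mu11K B Cd247 had -0.25, with the transgenic sample below the floor, and on U74A -0.13 with the probe set above the floor. The 2 probe sets of Dntt, which adds untemplated bases at the joints, had log2 ratios of -0.48 and -0.26 on Mu11K B, and its 3 on U74A -0.22, 0.17 and 0.00.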

How the data were processed

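RNA of sorted double-positive thymocytes was hybridised to 6 Affymetrix arrays, 3 per genotype, with the arrays of an experiment and type compared as a pair. The authors deposited linear intensities, with 1 value for each probe set, and log2 ratios were taken from these deposited values here. Microarray Analysis Software versions 4 and 5 are named per the labels' series text, and MAS5 in the submitters' processing notes of U74A. The scaling target is not given in the sources used here. Mu11K intensities were below 0 for 17.3% to 29.2% of probe sets, and U74A had none.

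AFFX control probe sets were left out (55, 55 and 66), as were 21 on Mu11K A without a wild-type value, which left 6508, 6540 and 12422. Arrays were brought to a common 2% trimmed mean of 500, with values under 100 raised to 100 before log2 (Python 3.11.15, pandas 2.3.3, numpy 2.4.6). Symbols came from the platform annotation, where 5530, 2001 and 10833 probe sets had 1 symbol, 197, 27 and 396 several and 781, 4512 and 1193 none. All receptor symbols matched RefSeq by gene ID. Probe sets with several symbols were kept for receptor segments, since the rule allows them. No test was made. The calculation was tested on simulated data. The 9 alternatives changed scaling, floor, filter, annotation or fold. A ratio or median was taken to have moved when it changed by more than the SD of the log2 ratios of its array type. The naming rule took every receptor probe set, the listed partners and markers, and the 5 genes nearest to each receptor annotation past 2-fold in both experiments. The members and lists were chosen with earlier results of these data known.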

Additional observations from a re-analysis of the deposited data

How the results depend on the processing

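Each count of receptor probe sets past 2-fold and each median log2 ratio was recomputed under 9 alternatives, and 51 of 54 counts stayed within 1.5 times the reported count and 30 of 32 medians held. The counts lower on every array type and higher on Mu11K B were 0 as reported, so much of this tally is 0 staying at 0. Within that tolerance, the count of probe sets 2-fold higher on U74A was 2, against 3, with only those above the floor on both arrays and also with 1 symbol only. On Mu11K A, 1 receptor probe set (Trav9d-3, log2 ratio -1.04) was past 2-fold lower after quantile normalization and 2 were past 1.5-fold lower, against 0 as reported. With probe sets of 1 symbol only, 1 was 2-fold higher on Mu11K A, against 3, and the gamma median was 0.45, against 1.58; this alternative leaves out those annotated to both Trgv4 and Trgv2 by construction. With a floor of 200 the gamma median on U74A was 1.58, against 2.10, since the wild-type values are raised to the floor. With a floor of 50, m12815_at (Trgv1) also passed 2-fold, at 1.45, which made 4 on Mu11K A against 3, and M18858_rc_at (Trgv4) had a log2 ratio of -0.42. Of the 44 recomputed ratios of the gamma probe sets past 2-fold, 42 held, 2 moved and 0 changed sign. Medians set equal moved the median log2 ratio of all probe sets above the floor from -0.07 to 0.24 on Mu11K A and from -0.15 to 0.28 on Mu11K B. Quantile normalization moved it to 0.04 and 0.03. Beside the 0.24 on Mu11K A, the gamma median was 1.92. On Mu11K A the AFFX controls had no wild-type value, so keeping them in the trimmed mean equals the reported setting. On the other array types keeping them hardly changed the receptor ratios. The values as deposited, without scaling, gave the reported receptor ratios, since the trimmed means of each pair were already nearly equal. These alternatives could therefore hardly move a result. With 1 sample per genotype on each array type, leaving out a replicate was not possible.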
